A study of Mus musculus with 96 samples.

Results

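The 9 genes described here are Trem2, Gpnmb, Cd9, Cd63, Lgals3, Spp1, Ctsk, Atp6v0d2 and Mpeg1, a set known from macrophages that take up and break down lipid in fat tissue. They were chosen by name, with earlier results of these data known, and every array probe that carries 1 of these symbols was taken. Of the 9 genes 8 had a probe, 12 probes in all: Gpnmb had 4, Mpeg1 had 2 and the other 6 genes had 1 each. Spp1 has no value here. Messenger RNA was measured on 96 arrays. The tissues, 8 in all, came from inbred mice of the strain DBA/2J. The mice were 12 weeks old, had eaten a high-fat diet (HFD) or a standard breeding diet (SBD) for 6 weeks, and were fasted for 2 hours before dissection. Each tissue and diet had 6 arrays, which the labels call biological replicates, so there were 16 groups: perirenal, gonadal, mesenteric, inguinal, subcutaneous and brown fat, liver and skeletal muscle on either diet.

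Macrophages in the fat of obese animals gather around dying adipocytes, engulf the lipid that these release and digest it in lysosomes. Trem2 is a surface receptor that binds lipids and signals through the adaptor Tyrobp. In mice and people the cells with high Trem2 also carry the tetraspanins Cd9 and Cd63, the glycoprotein Gpnmb, the secreted lectin Lgals3 and osteopontin (Spp1), together with lysosomal enzymes such as Ctsk. None of these genes is restricted to macrophages: Cd9, Cd63 and Lgals3 are made by many cell types, and Ctsk also by osteoclasts and fibroblasts. DBA/2J is known to carry a nonsense allele of Gpnmb, so the Gpnmb values below describe a transcript, and no protein was measured. In bulk tissue, fewer or more cells of a type and less or more RNA per cell cannot be told apart.

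The promoters of Trem2, Gpnmb and Mpeg1 are shown because these 3 genes had the largest diet differences of the members in perirenal fat. Each is the 250 bases before the annotated start, written 5′ to 3′ on the gene's strand, from RefSeq on build GRCm38.p6. Capitals mark matches to TGANTCA, an AP-1-like motif in which N stands for any base, A in the match of Trem2.
Trem2, chr17:48346151-48346400, plus strand: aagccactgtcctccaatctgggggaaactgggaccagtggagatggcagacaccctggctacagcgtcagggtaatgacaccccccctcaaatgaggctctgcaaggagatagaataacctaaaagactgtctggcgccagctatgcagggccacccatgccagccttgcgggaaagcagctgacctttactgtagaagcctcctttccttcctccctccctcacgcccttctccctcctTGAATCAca
Gpnmb, chr6:49036268-49036517, plus strand: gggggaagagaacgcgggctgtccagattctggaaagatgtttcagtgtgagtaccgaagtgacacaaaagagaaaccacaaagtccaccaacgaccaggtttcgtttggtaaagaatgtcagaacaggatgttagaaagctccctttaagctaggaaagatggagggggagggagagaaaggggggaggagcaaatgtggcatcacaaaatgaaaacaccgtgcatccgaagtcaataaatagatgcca
Mpeg1, chr19:12460520-12460769, plus strand: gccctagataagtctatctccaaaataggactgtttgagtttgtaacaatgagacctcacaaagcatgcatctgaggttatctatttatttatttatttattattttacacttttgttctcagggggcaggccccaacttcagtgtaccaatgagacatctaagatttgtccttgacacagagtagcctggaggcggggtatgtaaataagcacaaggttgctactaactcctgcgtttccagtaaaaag
RefSeq gave 9 such promoters for 8 of the 9 genes, 2 of them for Spp1. TGANTCA, searched on both strands, was in 1 of the 9, that of Trem2, and in 6.75% of all 32851 promoters in the table. The E-box core CACGTG and the longer TCACGTG and TCATGTG, which MiT/TFE factors bind, were in none of the 9 windows, against 6.02%, 3.13% and 3.25% of all promoters; TCACGTG overlaps CACGTG. GAGGAAGT, a PU.1-like motif, was in 1 promoter of Spp1 and in 2.44% of all. These matches describe letters in a window and say nothing of binding.

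The tissue labels were set against defining markers on the 96 arrays normalized together. Adipoq averaged 14.75 to 15.51 (log2 intensity) in the 6 fat tissues, 11.48 in muscle and 7.63 in liver; Acta1 was highest in muscle at 15.66 and Alb highest in liver, though at 9.36 only. Ucp1 averaged 15.09 in brown fat and 14.4 in subcutaneous fat, and Acta1 reached 14.99 in brown and 14.06 in perirenal fat. The arrays also differed in brightness, read as the ratio of upper-quartile to median signal. HFD replicates 3 to 6 were dimmer than the other 8 arrays in all 6 fat tissues, and not in liver or muscle. In perirenal fat the ratio was 1.57 to 1.66 on these, 2.41 to 2.58 on HFD replicates 1 and 2 and 2.07 to 2.17 on the SBD arrays. The members' calls in fat, and most counts over gene lists, are therefore also given with a term for those 4 arrays (the dim-array term), which leaves 2 HFD arrays to carry the diet difference. The labels name no batch.

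Values are log2 intensities after normexp background correction and quantile normalization over the 12 arrays of a tissue, differences are HFD minus SBD with a standard error, and n = 6 arrays per diet. A gene was tested in a tissue where its mean lay above the median of all probes there, which held for 52 of the 64 pairs of a measured gene and a tissue. It was called at an adjusted p under 0.05 (limma, Benjamini-Hochberg over all genes tested in that tissue). Of the 52 pairs 28 were called higher on HFD and 1 lower. Since the genes were chosen with earlier results of these data known, the counts below are a description.
In perirenal fat 7 of 7 tested members rose, where 26.5% of all genes tested were called, 13.3% higher and 13.3% lower. All HFD arrays lay above all SBD arrays for the same 7, and 12.1% of all genes had groups that did not overlap. In gonadal fat 6 of 7 rose (12.2% of all called, 6.12% higher and 6.05% lower), and 4 did not overlap (6.25% of all). In mesenteric fat 1 of 7 rose (0.648% called, 0.253% higher and 0.396% lower), and that member did not overlap (1.95% of all).
In inguinal fat 4 of 7 rose (23.6% called, 11% higher and 12.7% lower), and 2 did not overlap (9.21% of all). In subcutaneous fat 4 of 7 rose (19.9% called, 8.78% higher and 11.1% lower), and all 7 overlapped (7.52% of all did not). In brown fat 6 of 7 rose (15% called, 6.77% higher and 8.27% lower), and 1 did not overlap (5.34% of all).
In liver none of 5 rose and 1 fell (1.12% called, 0.598% higher and 0.527% lower), and that 1 did not overlap (1.32% of all). In muscle none of 5 was called (0.192% called, 0.0935% higher and 0.099% lower), and all 5 overlapped (0.803% of all did not). Of these 5 muscle members 3 had an unadjusted p under 0.05 in limma, all higher, against 8.98% of all genes.

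The median difference of the tested members was 1.3 in perirenal fat, beside −0.03 for all genes tested there. It was 0.93 in brown, 0.85 in gonadal, 0.76 in subcutaneous, 0.58 in inguinal and 0.43 in mesenteric fat, where that of all genes lay between −0.03 and −0.01. In muscle it was 0.20 and in liver 0.01, beside 0.0015 and 0.0022 for all genes. A term for the 4 dimmest arrays left 6 calls in perirenal fat (Lgals3 was lost), 1 in inguinal and 1 in brown fat (Mpeg1 in both), and none in gonadal, mesenteric or subcutaneous fat. With that term 7.21% of all genes were called in perirenal, 0.867% in gonadal, 3.88% in inguinal, 2.33% in subcutaneous and 0.985% in brown fat. No gene was called in mesenteric fat with it. The bright arrays alone gave 6 calls in perirenal (4.77% of all genes called), 1 in inguinal (2.39%) and none in gonadal (0.328%), subcutaneous (0.64%), brown (0.388%) or mesenteric fat, where no gene was called.

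**Figure D1:**
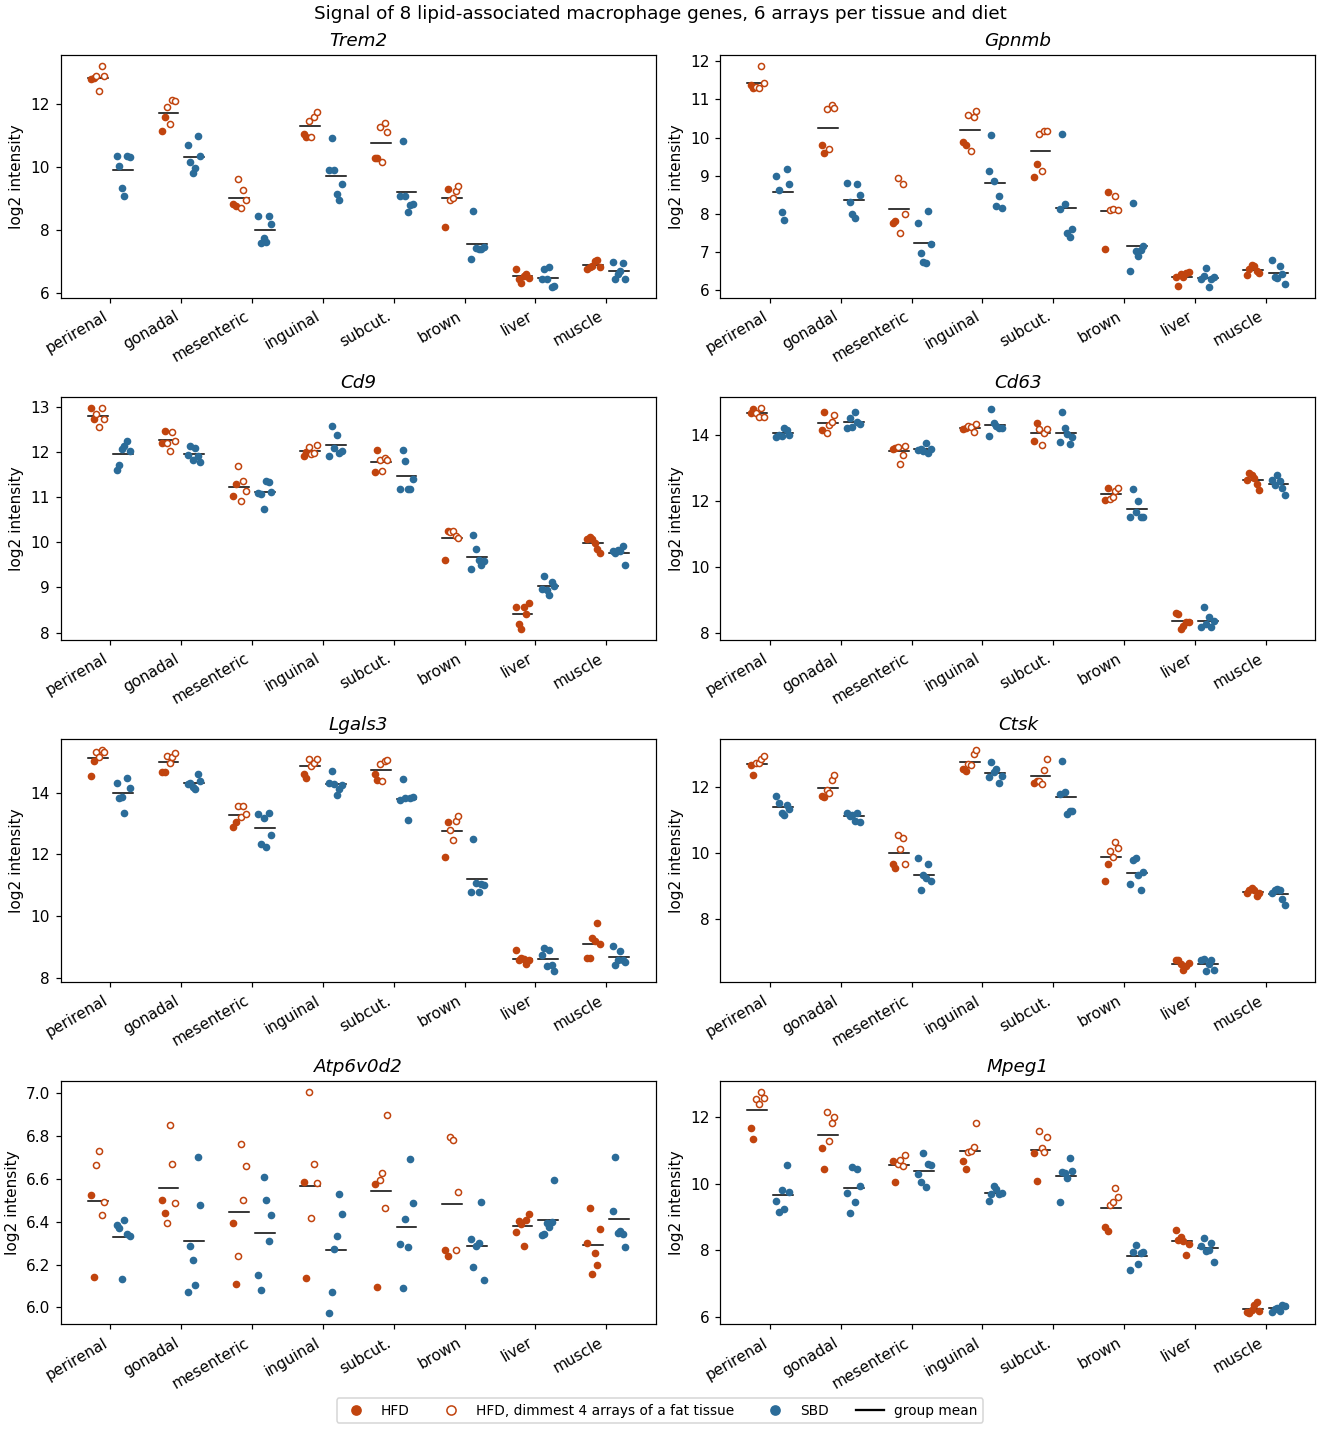
Log2 intensity (y axis) of 8 genes on each array by tissue (x axis), with HFD arrays in red to the left of SBD arrays in blue; open circles are the 4 dimmest arrays of a fat tissue, and bars are means of 6 arrays. Each tissue was normalized on its own, so heights are read within a tissue: in perirenal fat all HFD arrays of 7 genes lie above all SBD arrays, and Atp6v0d2 stays between about 6 and 7 throughout.

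Trem2 was higher on HFD in all 6 fat tissues. In perirenal fat its 6 HFD arrays read 12.41 to 13.2 with a median of 12.85, against 9.07 to 10.36 with a median of 10.18 on SBD. The groups lay far apart, and HFD replicates 1 and 2 (median 12.81) matched replicates 3 to 6 (median 12.88). The difference was 2.92 ± 0.22 (7.56-fold, adjusted p = 1.42e-06), and 2.88 over the bright arrays alone (adjusted p = 0.00422).
In gonadal fat Trem2 read 11.15 to 12.13 (median 11.74) on HFD, against 9.82 to 10.97 (median 10.26) on SBD, a difference of 1.38 ± 0.21 (2.60-fold, adjusted p = 0.000829). No arrays overlapped between the diets; with the term for dim arrays the difference was 1.04 ± 0.28 and was not called (adjusted p = 0.103).
In inguinal fat Trem2 read 10.94 to 11.73 on HFD, against 8.96 to 10.93 on SBD, so that the highest SBD array, replicate 2, almost met the lowest HFD array, replicate 4. The difference was 1.57 ± 0.26 (2.97-fold, adjusted p = 0.000835), and 1.29 ± 0.37 with the dim-array term, not called (adjusted p = 0.0701).
In subcutaneous fat the HFD arrays read Trem2 at 10.17 to 11.39, against 8.57 to 9.09 on 5 SBD arrays and 10.81 on SBD replicate 2. The difference was 1.55 ± 0.33 (2.92-fold, adjusted p = 0.00476), and 1.87 without that array. The dim-array term gave 1.08 ± 0.45, not called (adjusted p = 0.244).
In brown fat 5 HFD arrays read Trem2 at 8.95 to 9.39 and replicate 1 read 8.10, against 7.08 to 7.48 on 5 SBD arrays and 8.59 on SBD replicate 2. These 2 arrays made the diets overlap, and the difference was 1.44 ± 0.23 (2.71-fold, adjusted p = 0.00122). The dim-array term gave 1.14 ± 0.32, not called (adjusted p = 0.126).
In mesenteric fat Trem2 read 8.70 to 9.62 on HFD, against 7.60 to 8.45 on SBD, with no overlap and a difference of 1.01 ± 0.20 (2.01-fold, adjusted p = 0.0354). This call was lost when any 1 of 8 arrays was left out (HFD replicates 1, 3, 5 and 6, SBD replicates 2, 3, 4 and 6) and with the dim-array term (adjusted p = 0.999). In muscle the difference was 0.20 ± 0.09 (adjusted p = 0.553), and in liver Trem2 was below the filter.

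Gpnmb, a membrane glycoprotein of lysosomes and phagosomes, followed Trem2 closely. In perirenal fat it read 11.29 to 11.88 (median 11.37) on HFD, against 7.84 to 9.18 (median 8.70) on SBD. All HFD arrays lay above all SBD arrays, by a mean of 2.86 ± 0.21 (7.26-fold, adjusted p = 8.9e-07). The difference over the bright arrays alone was 2.81 (adjusted p = 0.00416).
In gonadal fat Gpnmb read 9.61 to 10.85 on HFD, against 7.88 to 8.80 on SBD, again without overlap, a difference of 1.88 ± 0.25 (3.67-fold, adjusted p = 0.000358). HFD replicates 3 to 6 stood higher there (median 10.77) than replicates 1 and 2 (median 9.70), and the dim-array term gave 1.33 ± 0.29 (adjusted p = 0.0555).
Gpnmb rose by 1.38 ± 0.29 in inguinal fat (adjusted p = 0.00326), 1.48 ± 0.38 in subcutaneous fat (adjusted p = 0.0148) and 0.93 ± 0.27 in brown fat (adjusted p = 0.0302), and the diets overlapped in each. SBD replicate 2 was the highest SBD array in all 3: 10.06 against 8.16 to 9.12 on the other 5 in inguinal fat, 10.1 against 7.40 to 8.24 in subcutaneous fat and 8.28 against 6.50 to 7.16 in brown fat. None of these 3 calls held with the dim-array term (adjusted p = 0.174, 0.387 and 0.522). The call in brown fat was also lost without any 1 of 8 arrays. In mesenteric fat the difference was 0.89 ± 0.29 and was not called (adjusted p = 0.168).
A second Gpnmb probe was above the filter in 4 tissues and was called higher in each: by 1.60 ± 0.13 in perirenal, 0.79 ± 0.12 in gonadal, 0.69 ± 0.16 in inguinal and 0.48 ± 0.14 in subcutaneous fat, with adjusted p = 1.73e-06, 0.00105, 0.00709 and 0.0281. The other 2 Gpnmb probes were below the filter in all 8 tissues.

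The tetraspanins Cd9 and Cd63, small membrane proteins that organise other proteins at the cell surface and in endosomes, moved less. In perirenal fat Cd9 read 12.56 to 12.97 (median 12.78) on HFD, against 11.61 to 12.24 (median 12.04) on SBD. The diets did not overlap, and the difference was 0.84 ± 0.12 (1.79-fold, adjusted p = 0.000179). It was also called with the dim-array term (adjusted p = 0.00691), but not with median scaling in place of quantile normalization, at 0.57 (adjusted p = 0.157).
In gonadal fat Cd9 read 12.01 to 12.46 on HFD, against 11.77 to 12.14 on SBD, a difference of 0.31 ± 0.10 with adjusted p = 0.0451. That call was lost without any 1 of 9 arrays, and with median scaling the difference was −0.14 while that of all genes was −0.26. In brown fat it rose by 0.41 ± 0.13 (adjusted p = 0.0472), a call lost without any 1 of 10 arrays. Neither of these was called with the dim-array term (adjusted p = 0.203 and 0.65). In subcutaneous, mesenteric and inguinal fat Cd9 differed by 0.32 ± 0.15, 0.11 ± 0.14 and −0.14 ± 0.11, none called.
Liver was the only tissue in which a member was called lower. Cd9 read 8.08 to 8.66 (median 8.495) there on HFD, against 8.83 to 9.26 (median 8.99) on SBD, with no overlap, a difference of −0.61 ± 0.10 (1.53-fold lower, adjusted p = 0.00382). The call held without each array in turn and with brightness as a covariate (adjusted p = 0.00567), and was lost with median scaling, where the difference was −0.67 (adjusted p = 0.32).
Cd63 read 14.54 to 14.8 (median 14.65) on HFD in perirenal fat, against 13.94 to 14.19 (median 14) on SBD. No arrays overlapped, and the difference was 0.62 ± 0.08 (1.54-fold, adjusted p = 6.53e-05). It was also called with the dim-array term (adjusted p = 0.00174), but not with median scaling, at 0.43 (adjusted p = 0.126). In brown fat Cd63 rose by 0.45 ± 0.14 (adjusted p = 0.0396), while with median scaling the difference was −0.0047, and its call was lost without any 1 of 9 arrays and with the dim-array term (adjusted p = 0.387). In gonadal, mesenteric, inguinal and subcutaneous fat its difference was −0.02, −0.06, −0.08 and −0.02, each within 1 standard error of 0, and none was called. The 95% intervals there ran from −0.34 at the lowest to 0.30 at the highest.

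Lgals3 encodes galectin-3, a lectin that binds sugars on damaged lysosomes and cell surfaces. In perirenal fat it read 14.53 to 15.37 (median 15.22) on HFD, against 13.33 to 14.48 (median 14.01) on SBD. The lowest HFD array stood just above the highest SBD array, and the difference was 1.12 ± 0.19 (2.17-fold, adjusted p = 0.000741). Given the dim-array term it was 0.79 ± 0.24 and not called (adjusted p = 0.0695).
In brown fat Lgals3 read 11.92 to 13.25 on HFD, against 10.78 to 11.07 on 5 SBD arrays and 12.5 on SBD replicate 2, a difference of 1.56 ± 0.27 (2.95-fold, adjusted p = 0.00176). That SBD array lay among the HFD arrays, and the dim-array term gave 1.30 ± 0.38, not called (adjusted p = 0.142).
Lgals3 also rose by 0.93 ± 0.18 in subcutaneous (adjusted p = 0.00264), 0.67 ± 0.12 in gonadal (adjusted p = 0.00283) and 0.58 ± 0.13 in inguinal fat (adjusted p = 0.00602). The diets overlapped in subcutaneous and inguinal but not in gonadal fat, and none of the 3 was called with the dim-array term (adjusted p = 0.163, 0.232 and 0.378). In mesenteric fat, muscle and liver the differences of 0.43 ± 0.21, 0.45 ± 0.16 and 0.02 ± 0.12 were not called.

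Ctsk encodes cathepsin K, a lysosomal protease that cleaves collagen. In perirenal fat it read 12.36 to 12.94 (median 12.74) on HFD, against 11.17 to 11.74 (median 11.41) on SBD, and in gonadal fat 11.71 to 12.36 (median 11.89) on HFD, against 10.96 to 11.23 (median 11.13) on SBD. The diets were fully apart in both. The differences were 1.30 ± 0.11 (2.47-fold, adjusted p = 3.84e-06) and 0.85 ± 0.12 (1.81-fold, adjusted p = 0.00044). With the dim-array term they were 1.11 ± 0.14 (adjusted p = 0.000703) and 0.60 ± 0.14, the second not called (adjusted p = 0.0573).
Elsewhere Ctsk was not called: its difference was 0.66 ± 0.21 in mesenteric fat (adjusted p = 0.154), 0.63 ± 0.23 in subcutaneous fat (adjusted p = 0.0598), 0.49 ± 0.20 in brown fat (adjusted p = 0.0981) and 0.33 ± 0.12 in inguinal fat (adjusted p = 0.0632). SBD replicate 2 again read high in subcutaneous fat, 12.79 against 11.19 to 11.85 on the other 5 SBD arrays. In muscle and liver the differences were 0.07 ± 0.08 and 0.01 ± 0.08.
Atp6v0d2, a subunit of the proton pump of osteoclasts and macrophages, stayed below the filter in all 8 tissues and was not tested. With all 96 arrays normalized together, its means ran from 6.41 to 6.56 on HFD and from 6.18 to 6.72 on SBD.

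Mpeg1 encodes perforin-2, a pore-forming protein of phagocytes. In perirenal fat it read 11.34 to 12.74 (median 12.47) on HFD, against 9.15 to 10.56 (median 9.61) on SBD. The diets did not overlap, but HFD replicates 3 to 6 (median 12.57) stood above replicates 1 and 2 (median 11.5). The difference was 2.55 ± 0.27 (5.85-fold, adjusted p = 1.92e-05), and 1.84 ± 0.28 with the dim-array term (adjusted p = 0.0019).
In gonadal fat Mpeg1 rose by 1.60 ± 0.29 (adjusted p = 0.00281) with 5 of 6 HFD arrays above all SBD arrays, and the dim-array term gave 0.89 ± 0.33, not called (adjusted p = 0.25). In brown fat it read 8.57 to 9.87 on HFD, against 7.39 to 8.15 on SBD, and in inguinal fat 10.43 to 11.83 on HFD, against 9.46 to 9.94 on SBD, without overlap in either. The differences were 1.43 ± 0.20 (adjusted p = 0.000345) and 1.27 ± 0.18 (adjusted p = 0.000186), and both passed with the dim-array term (adjusted p = 0.041 and 0.0301).
In subcutaneous fat Mpeg1 rose by 0.76 ± 0.23 (adjusted p = 0.0302), a call lost without any 1 of 6 arrays and with the dim-array term (adjusted p = 0.689). In mesenteric fat and liver it differed by 0.18 ± 0.18 and 0.22 ± 0.12, not called. The second Mpeg1 probe was above the filter in all 8 tissues and was called in perirenal fat alone, by 0.67 ± 0.09 (adjusted p = 0.000139), so the 2 probes differ in their calls in gonadal, inguinal, subcutaneous and brown fat; in mesenteric fat neither was called.

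**Figure D2:**
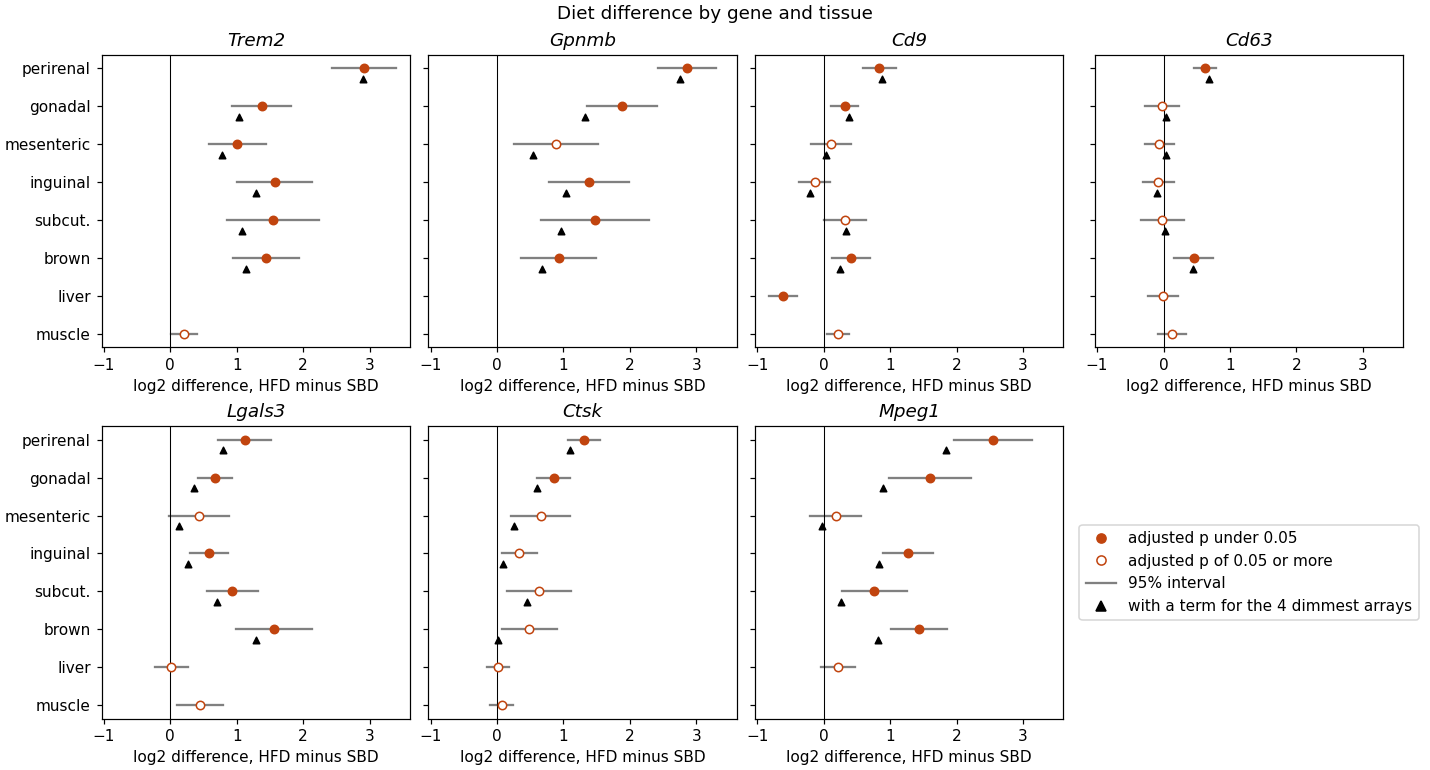
Log2 difference HFD minus SBD (x axis) of 7 genes by tissue (y axis), with the 95% interval as a grey line; filled circles had an adjusted p under 0.05, open circles did not, and black triangles give the difference with a term for the 4 dimmest arrays. In perirenal fat all 7 circles are filled, Trem2 at 2.92 and Cd63 at 0.62, and the triangles of Mpeg1 lie left of its circles in each fat tissue.

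Whether the diet difference itself varied between tissues was tested on the joined arrays. This fit took all arrays as independent, with 1 variance per gene over the tissues. Whether arrays of the same diet and number came from 1 mouse was not tested. Between the 6 fat tissues it differed for 6 of 7 members (15.3% of all genes passed), namely Mpeg1 (adjusted p = 3.37e-05), Cd9 (0.00208), Cd63 (0.0024), Trem2 (0.00487), Gpnmb (0.00795) and Lgals3 (0.0354), and not for Ctsk (adjusted p = 0.0714). With median scaling 1 of the 7 passed, and without the 2 arrays of replicate number 3 in each tissue 4 passed. Between all 8 tissues 4 members were above the filter throughout and all 4 passed (31.5% of all genes), Cd9 with the smallest adjusted p at 1.62e-08; with median scaling none did.
A further test, chosen after these values were seen, set the difference in perirenal fat against its mean over the other 5 fat tissues. It passed for 6 of 7 members (8.92% of all genes). The perirenal difference exceeded the mean of the others by 1.53 ± 0.31 for Trem2 (2.92 against 1.39), 1.55 ± 0.36 for Gpnmb (2.86 against 1.31), 1.50 ± 0.28 for Mpeg1 (2.55 against 1.05), 0.71 ± 0.21 for Ctsk, 0.63 ± 0.14 for Cd9 and 0.57 ± 0.14 for Cd63, with adjusted p from 0.00012 for Mpeg1 to 0.0187 for Ctsk. For Lgals3 it was 0.28 ± 0.23 (adjusted p = 0.607). With brightness as a covariate 6 passed, and with median scaling 3.
Between the intra-abdominal depots (perirenal, gonadal, mesenteric) and the subcutaneous ones (inguinal, subcutaneous) no member's diet difference passed in limma, where 1.67% of all genes did. Cd9, Ctsk and Cd63 had unadjusted p = 0.0066, 0.00802 and 0.0402, with differences of 0.33 ± 0.12, 0.45 ± 0.17 and 0.23 ± 0.11. With arrays of the same diet and number as a random block 2 members passed. For the alternative settings of these tests between tissues the share over all genes was not computed.

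Levels were compared between tissues on the 96 arrays normalized together, gene by gene. On HFD perirenal fat ranked highest for all 7 genes. Tissues are called apart here where their difference of means had an adjusted p under 0.05, which does not measure the spread of arrays. Perirenal fat was apart from the next tissue for Trem2, Gpnmb, Mpeg1, Cd9 and Cd63, but not for Lgals3 or Ctsk. Trem2 read 12.29 ± 0.27 (SD, n = 6), against 11.02 ± 0.41 in gonadal fat. Gpnmb read 10.84 ± 0.22 against 9.58 ± 0.58, and Mpeg1 11.64 ± 0.59 against 10.78 ± 0.66, both also against gonadal fat.
On SBD the order was another one. Gonadal fat ranked first for Trem2 (9.65 ± 0.43), Lgals3 (13.87 ± 0.20) and Cd63 (13.94 ± 0.22), with perirenal (Trem2) or inguinal fat (Lgals3, Cd63) next and not apart from it. Inguinal fat ranked first for Gpnmb (8.31 ± 0.61), Cd9 (11.51 ± 0.28) and Ctsk (11.79 ± 0.23). Only for Ctsk was it apart from the next tissue, subcutaneous fat at 11.15 ± 0.64. Mesenteric fat ranked first for Mpeg1 at 10.47 ± 0.42, apart from subcutaneous fat at 9.65 ± 0.43. Mesenteric samples also carried high signal of exocrine pancreas and lymphocyte markers, given below. Among the 5 white depots on SBD the level differed for 6 of 7 members and not for Cd63 (adjusted p = 0.157), where 59.2% of all genes passed.
Liver ranked last for Trem2, Gpnmb, Lgals3, Cd63 and Ctsk on both diets. It was not apart from muscle for Gpnmb (adjusted p = 0.234 on HFD and 0.419 on SBD), for Lgals3 (0.0681 and 0.91) or, on SBD, for Trem2 (0.127). Mpeg1 differed in this: in liver it read 9.51 ± 0.27 on HFD and 9.28 ± 0.27 on SBD, not apart from brown fat on HFD, and its lowest level was in muscle (6.46 ± 0.19 on HFD and 6.47 ± 0.10 on SBD).

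**Figure D3:**
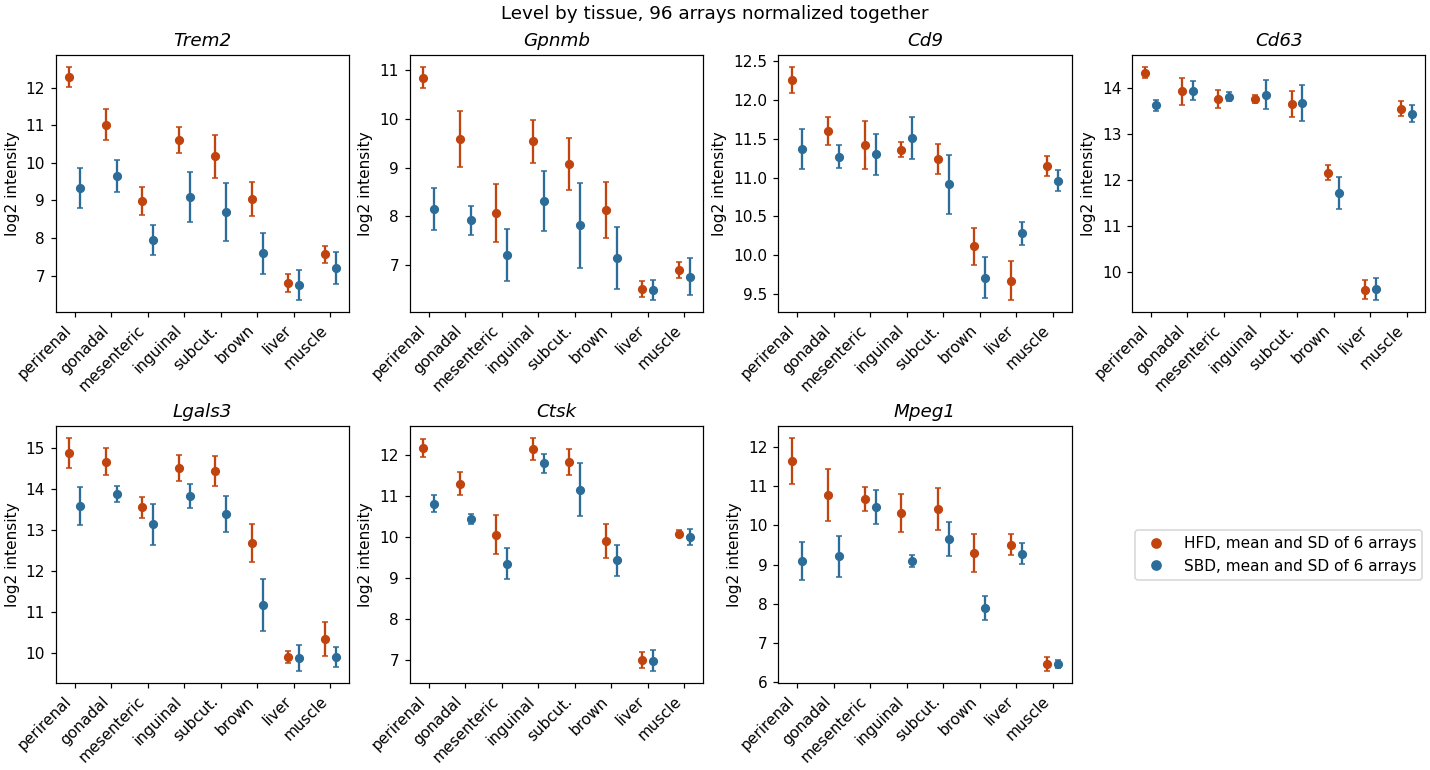
Mean log2 intensity (y axis) of 7 genes in 8 tissues (x axis), HFD in red to the left of SBD in blue, with bars of 1 SD over 6 arrays, all 96 arrays normalized together. On HFD each gene is highest in perirenal fat, while on SBD the highest tissue is gonadal fat for Trem2 and mesenteric fat for Mpeg1.

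A rise of these genes was set against that of general macrophage markers (Adgre1, a surface receptor of mature mouse macrophages, with Aif1, Fcgr1, Fcer1g, Lyz2, Cd14 and C1q genes). Of 8 markers tested 7 rose in perirenal fat, 4 in brown, 2 in inguinal, 1 in gonadal, 1 in subcutaneous and none in mesenteric fat. In perirenal fat 3 passed as higher with the dim-array term, and in the other 5 fat tissues none. Their summed intensity was 61470 to 90840 on HFD and 27700 to 50190 on SBD in perirenal fat, and 46190 to 54190 on HFD and 30490 to 50480 on SBD in gonadal fat. On each array the mean log2 level of the 8 markers was subtracted from the member's, and the diets were compared by a two-sided exact permutation test, 6 against 6 arrays, with p adjusted over the 42 pairs of 7 genes and 6 fat tissues. The smallest p this test allows is 0.00217.
In 26 of 42 pairs the member changed by another amount than the markers, more in 24 and less in 2. The share over all genes was not computed for this test. In mesenteric and subcutaneous fat the markers moved by −0.01 and 0.02, so there the test is close to the plain diet comparison. Its p was adjusted over 42 pairs and not over all genes. In mesenteric fat Gpnmb, Lgals3 and Ctsk passed here, though limma did not call these genes (adjusted p = 0.168, 0.313 and 0.154). Trem2 exceeded the markers in all 6 fat tissues, by 1.88 in perirenal (markers 1.03, adjusted p = 0.00649) and by 1.53 in subcutaneous fat (markers 0.02, adjusted p = 0.00649). Gpnmb exceeded them in 5 and not in brown fat (0.36, adjusted p = 0.17), Mpeg1 in 5 and not in mesenteric fat (0.19, adjusted p = 0.424). Lgals3 exceeded them in 5, by 1.00 in brown fat (adjusted p = 0.00909), and not in perirenal fat (0.08, adjusted p = 0.677).
Ctsk exceeded the markers in gonadal, mesenteric and subcutaneous fat by 0.49, 0.67 and 0.61. Cd9 and Cd63 exceeded them nowhere and in inguinal fat fell short by 0.34 and 0.28 (adjusted p = 0.00909 and 0.0227).
The choice of markers bears on the count. Set against Adgre1 alone, which itself rose by 1.71 in perirenal fat, 9 of 42 pairs passed, 7 more and 2 less: Mpeg1 in perirenal, gonadal, inguinal and brown fat, Trem2 in perirenal and Gpnmb in perirenal and gonadal fat, and Cd9 and Cd63, less, in inguinal fat. Over the bright arrays alone no pair passed, but with 2 HFD arrays the smallest p is 0.0357. The 10 pairs that reached it had an adjusted p of 0.15, so this test could hardly pass and decides nothing. The difference was positive in all 24 pairs in which the member had changed more. Those pairs were chosen on arrays that include the bright ones, so this is a description only.

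**Figure D4:**
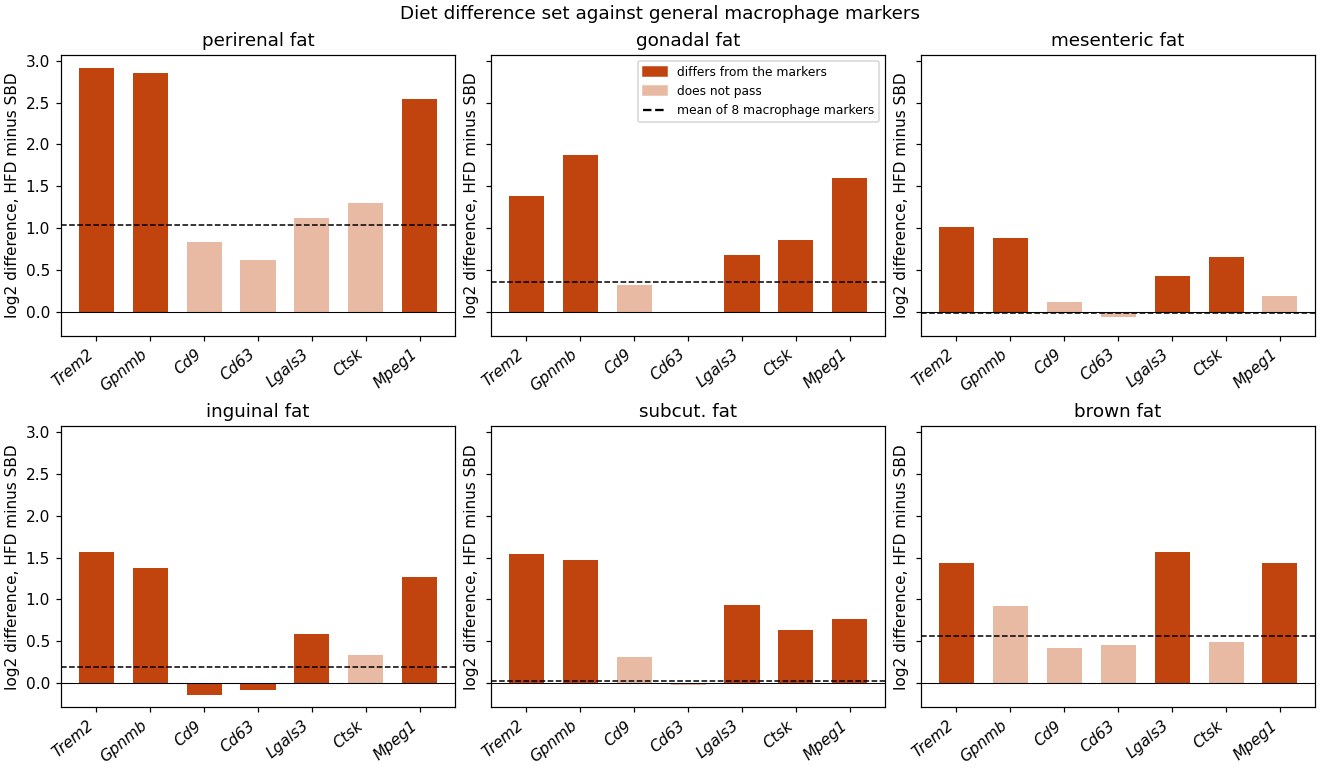
Log2 difference HFD minus SBD (y axis) of 7 genes (x axis) in each fat tissue, with the mean difference of 8 general macrophage markers as a dashed line; dark bars differ from the line by the exact permutation test with an adjusted p under 0.05, pale bars do not. Trem2 stands above the line in all 6 panels. Cd63 lies below it in all 6, and Cd9 in perirenal, gonadal, inguinal and brown fat, and both differ from it by the test in inguinal fat only.

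Across the 96 arrays, with each tissue's mean subtracted, the genes most like each member were listed as a description; the points share tissue, diet and array brightness. Trem2 and Gpnmb were each other's nearest of 13718 named genes (Pearson r = 0.954), followed for both by Dpep2, a dipeptidase, and Arl11, a small GTPase. Among the 7 members r ran from 0.329 (Cd63 and Mpeg1) to that value. Ctsk was nearest to Gpnmb (0.875), Lgals3 to Fcgr3, an IgG receptor (0.892), and Mpeg1 to Ctss (0.924), Adgre1 (0.913) and Cybb (0.91). Cd9 lay nearest to Ccl9 (0.707) and the collagen gene Col1a1 (0.697), and Cd63 to Cd9 (0.682). Nearest to the mean profile of the 7 was Capg (0.931), an actin-capping protein, and then Dpep2 (0.928) and Arl11 (0.922).

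Partners of Trem2 moved with it in part. Of 8 tested genes of its pathway 7 rose in perirenal fat, 4 of 7 in gonadal, 3 of 7 in inguinal, 3 of 7 in brown, 1 of 7 in subcutaneous and none of 8 in mesenteric fat, with 1 falling in each of gonadal, inguinal, brown and subcutaneous fat. The dim-array term gave 5 higher in perirenal, 1 in gonadal and none in inguinal, brown or subcutaneous fat. Tyrobp, the adaptor through which Trem2 signals, rose by 2.10 ± 0.19 in perirenal (adjusted p = 6.49e-06), 1.10 ± 0.25 in gonadal, 1.10 ± 0.17 in brown, 1.08 ± 0.20 in inguinal and 0.87 ± 0.19 in subcutaneous fat, and in mesenteric fat differed by 0.39 ± 0.12 (adjusted p = 0.151). Plcg2, a phospholipase downstream of the receptor, rose by 1.25 ± 0.09 in perirenal fat and 0.86 ± 0.11 in gonadal fat. Hcst, another adaptor, rose by 0.81 ± 0.11 in perirenal fat and fell by 0.91 in subcutaneous (adjusted p = 0.000723) and 0.59 in brown fat (adjusted p = 0.00141). Apoe, a lipoprotein that Trem2 binds and that adipocytes also make, fell by 0.50 in gonadal fat (adjusted p = 0.0184) and 1.08 in inguinal fat (adjusted p = 1.9e-05), and in perirenal fat its difference was −0.18 ± 0.14 (adjusted p = 0.349).
Of 18 further tested genes of lipid-associated macrophages 12 rose and 1 fell in perirenal fat, 10 of 18 rose in gonadal, 11 of 18 in inguinal, 6 of 18 in brown with 2 falling and 6 of 18 in subcutaneous fat with 1 falling, and none of 17 in mesenteric fat with 1 falling. Itgax (CD11c) rose by 2.21 ± 0.18 in perirenal, 1.31 ± 0.16 in gonadal, 1.08 ± 0.14 in inguinal and 0.89 ± 0.12 in subcutaneous fat. Lipa, the lysosomal acid lipase, rose by 1.89 ± 0.21 in perirenal and 1.12 ± 0.18 in gonadal fat, Cd84, a surface receptor of leukocytes, by 2.05 ± 0.21 and 1.12 ± 0.16, and Slc6a6, the taurine transporter, by 1.15 ± 0.12 and 0.66 ± 0.11. With the dim-array term 8 of these 18 passed as higher in perirenal, 6 in inguinal, 3 in brown, 2 in subcutaneous and 1 in gonadal fat.

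Other parts of the lysosome were less uniform. Of 14 subunits of the proton pump (other than Atp6v0d2) 8 rose in perirenal fat, 6 in inguinal, 4 in gonadal with 1 falling, 3 in subcutaneous, 2 in brown and none in mesenteric fat. The dim-array term gave 4 higher in perirenal, 2 in inguinal, 1 in subcutaneous and none in gonadal or brown fat. Tcirg1, the a3 subunit of osteoclasts and macrophages, rose by 1.44 ± 0.15 in perirenal and 0.73 ± 0.10 in gonadal fat. Of 14 lysosomal enzymes and membrane proteins 10 rose and 1 fell in perirenal fat and 4 rose in gonadal fat, among them Ctsa, by 0.83 ± 0.12 and 0.68 ± 0.09; with the dim-array term 3 and 1 passed as higher. Mitf, a transcription factor that controls lysosomal and osteoclast genes, rose by 0.68 ± 0.10 in perirenal fat and fell by 0.39 in inguinal fat (adjusted p = 0.0423). Of 7 osteoclast genes 3 rose and 1 fell in perirenal fat: Dcstamp, needed for cell fusion, by 1.27 ± 0.13, Tnfrsf11a by 1.17 ± 0.16 and Ocstamp by 0.66 ± 0.11, while Mmp9 fell by 0.55. Of the 7 genes 3 passed as higher and none as lower with the dim-array term. Of 6 other tetraspanins Cd53 and Cd37, both of leukocytes, rose in perirenal fat by 1.66 ± 0.26 and 0.87 ± 0.09. Of 8 osteopontin receptors 3 rose in perirenal and 3 in gonadal fat, and none fell in either. With the dim-array term 1 passed as higher in perirenal fat and none in gonadal fat. Among these receptors Cd44 rose by 1.34 ± 0.12 in perirenal and 0.87 ± 0.13 in gonadal fat.

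Markers of other cell types also moved. Of 7 fibroblast markers 4 rose in perirenal, 3 in gonadal, 3 in brown and 3 in subcutaneous fat, with 1 falling there, and 2 fell in inguinal fat. With the dim-array term 2 passed as higher in perirenal fat, 1 in gonadal fat and none in either direction in brown, subcutaneous or inguinal fat. Their summed intensity in perirenal fat was 52700 to 77190 on HFD and 40400 to 55600 on SBD, and Col1a1 rose there by 1.02 ± 0.12 and in gonadal fat by 1.08 ± 0.12. Fibroblasts can make Ctsk, Cd63 and Cd9, and the part of these cells in their differences was not tested. Of 5 resident macrophage markers 1 rose and 1 fell in perirenal and in gonadal fat. In inguinal fat 2 fell, in subcutaneous fat 1 fell, in brown fat 1 rose and in mesenteric fat none was called. Of these Timd4 fell in perirenal (by 0.60), gonadal, inguinal and subcutaneous fat, and Mrc1 rose in perirenal (by 0.59 ± 0.14), gonadal and brown fat. Lyve1 and Folr2 were called in no tissue. With the dim-array term 1 resident marker passed as lower in perirenal fat and none in the other fat tissues. In subcutaneous fat 5 of 6 lymphocyte markers fell, with a summed intensity of 6782 to 10340 on HFD and 7788 to 20530 on SBD, and none passed with the dim-array term or with brightness as a covariate. Lymphocyte markers summed to 15990 to 25230 on HFD and 13600 to 25640 on SBD in mesenteric fat. The sums in perirenal fat were 1536 to 2288 and 1300 to 2111. Exocrine pancreas markers summed to 253500 to 324400 on HFD and 1585 to 297700 on SBD in mesenteric fat. In perirenal fat these were 4777 to 7205 and 3339 to 7067. Of 6 markers tested in each list none was called in mesenteric fat. Mesothelial markers fell in perirenal fat, 3 of 5, and in gonadal fat, 2 of 5; skeletal muscle markers fell in gonadal fat, 3 of 5, with a summed intensity of 4879 to 7044 on HFD and 6046 to 80940 on SBD. Under the dim-array term 2 mesothelial markers passed as lower in perirenal fat, and no mesothelial or muscle marker in gonadal fat. Of 7 adipocyte markers 3 fell in perirenal fat (Lipe by 0.82, Retn by 0.65 and Plin1 by 0.62) and Lep rose by 0.46 ± 0.14. In gonadal fat 2 fell (Retn by 1.18 and Lipe by 0.58) and Lep rose by 0.48 ± 0.10, and with the dim-array term 1 passed as lower and none as higher in each. The summed intensity of adipocyte markers in perirenal fat was 133200 to 156600 on HFD and 118900 to 152900 on SBD. Of 4 brown adipocyte markers Cidea fell by 1.14 and Cox8b by 1.04 in perirenal fat, where Ucp1 rose by 1.16 ± 0.28, with a summed intensity of 20070 to 56730 on HFD and 25880 to 56120 on SBD. In gonadal fat Cidea fell by 1.16, Cox8b fell by 1.07 and Ucp1 rose by 2.35 ± 0.42. With the dim-array term 2 brown adipocyte markers passed as lower in perirenal and 1 in gonadal fat, and none as higher. The part of these cells in the results was not tested.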

How the data were processed

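Total RNA was hybridized to Illumina Mouse-6 BeadChips, per the labels. The authors deposited a linear signal intensity for 46632 probes on 96 arrays, with no detection p-value per the file headers, and a table of log2 values that matched, to within 0.00191, a quantile normalization of the same intensities. How beads were summarised and background was handled is not given in the sources used here. From the intensities, limma (version 3.58.1, R 4.3.3) gave normexp background correction (offset 50), log2, and quantile normalization within each tissue's 12 arrays. Of the probes 29976 had 1 symbol (updated through RefSeq on GRCm38.p6; 29921 matched), 10 had several and 16646 none. The brightest probe on average stood for a gene, unnamed probes stayed, and rows above the tissue's median probe were tested with lmFit and eBayes, two-sided, 6 HFD against 6 SBD arrays. The number of arrays limits the precision.

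The members and gene lists were chosen with earlier results of these data known. All 9 members are described in every tissue. Of each other list, genes were named from the 3 smallest p in perirenal or gonadal fat, together with Tyrobp, Apoe, Adgre1 and Itgax. For likeness the 3 genes with the highest correlation were named. Csf1r and Cd68 were to be named too, but neither was tested in any tissue. Limma fits across tissues used joined within-tissue values, or white fat arrays normalized together for the SBD levels. The alternatives were the deposited log2 values, no background correction (floor 16), median scaling, no filter, all probes, 1 fit of 96 arrays, array weights, a replicate block, brightness terms, a fold of at least 1.5 and each array left out. The fit was tested on simulated data.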

Additional observations from a re-analysis of the deposited data

Results flagged for a closer look

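Of 104 groups of 6 arrays, each a member in a tissue on a diet, 9 held an array far from the other 5 by Dixon's test; chance alone marks about 5% of groups. In perirenal fat on HFD, Gpnmb was 11.88 on replicate 5, with the next array at 11.43. SBD replicate 2 stood high for Trem2 (10.81, next 9.09) and Gpnmb (10.1, next 8.24) in subcutaneous fat, and for Trem2 (8.59, next 7.48), Gpnmb (8.28, next 7.16) and Lgals3 (12.5, next 11.07) in brown fat. HFD replicate 1 stood low in brown fat for Trem2 (8.10, next 8.95), Gpnmb (7.06, next 8.09) and Cd9 (9.62, next 10.1). Without SBD replicate 2 the members called in subcutaneous fat numbered 6, and without HFD replicate 1 those in brown fat numbered 7. The share over all genes was not computed without these arrays.

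The diet difference itself differed between tissues in 16 limma tests, which share arrays and genes. Between all 8 tissues this held for Cd9 (adjusted p = 1.62e-08), Ctsk (9.87e-05), Lgals3 (0.000374) and Cd63 (0.00156). Between the 6 fat tissues it held for Mpeg1 (3.37e-05), Cd9 (0.00208), Cd63 (0.0024), Trem2 (0.00487), Gpnmb (0.00795) and Lgals3 (0.0354). Between perirenal fat and the mean of the other 5 fat tissues it held for Mpeg1 (0.00012), Trem2 (0.000374), Cd9 (0.00167), Gpnmb (0.0021), Cd63 (0.0035) and Ctsk (0.0187). That last comparison was chosen after the values were seen.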

How the results depend on the processing

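The deposited log2 values, no background correction and all probes as rows changed no direction or call among the 52 member differences. Many calls in fat, that of Lgals3 in perirenal fat among them, depended on how array brightness was handled; that of Mpeg1 in inguinal fat passed with the covariate, the dim-array term and the bright arrays alone. With brightness as a covariate the members called numbered 7 in perirenal fat (19.3% of all genes called), 6 in gonadal (6.78%), 0 in mesenteric (0.181%), 3 in inguinal (11.1%), 2 in subcutaneous (11.6%) and 3 in brown fat (6.64%). With the term for the 4 dimmest arrays they numbered 0 in gonadal, mesenteric and subcutaneous fat and 1 in inguinal and in brown fat, and over the bright arrays alone 1 in inguinal and 0 in gonadal, mesenteric, subcutaneous and brown fat. With median scaling they numbered 5 in perirenal fat (5.39% of all genes called), where Cd9 and Cd63 were lost. They numbered 1 in gonadal (0.517%) and in brown fat (0.554%). None was called in mesenteric (0.011%), inguinal (1.79%) or subcutaneous fat (0.495%) or in liver (0.0549%). That scaling moved the median of all genes by −0.148 to −0.273 in fat. It left 0 members differing between the 8 tissues, 1 between the 6 fat tissues and 3 between perirenal and other fat. All 96 arrays in 1 fit gave 3 calls in mesenteric fat, no filter gave 7 members differing between the 8 tissues, and the random block gave 2 between the intra-abdominal and subcutaneous depots. Against Adgre1 alone 9 pairs passed, and over the bright arrays alone 0, where so few arrays leave the exact test hardly able to pass. For the tests between tissues and the fit of all 96 arrays, the share over all genes was not computed under these settings. The causes of these changes were not tested.

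Differences that changed sign were small and uncalled under the changed setting. With median scaling Cd9 was −0.14 in gonadal and −0.34 in mesenteric fat and −0.061 in muscle, Mpeg1 −0.29 in mesenteric fat, Ctsk −0.036 in inguinal fat and −0.17 in muscle, Cd63 −0.0047 in brown fat and −0.16 in muscle, and Lgals3 −0.055 in liver. With the brightness covariate Cd63 was 0.012 in gonadal fat, 0.011 in subcutaneous fat and 0.020 in liver. With the dim-array term Cd63 was 0.039 in gonadal, 0.031 in mesenteric and 0.015 in subcutaneous fat, and Mpeg1 −0.022 in mesenteric fat; over the bright arrays alone these were 0.033, 0.030, 0.017 and −0.022. With array weights Cd63 was 0.031 in subcutaneous fat, and Lgals3 −0.049 and Ctsk −0.012 in liver.

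With each array left out in turn, the members called numbered 7 to 7 in perirenal, 5 to 6 in gonadal, 0 to 1 in mesenteric, 4 to 5 in inguinal, 3 to 6 in subcutaneous and 3 to 7 in brown fat, 1 to 1 in liver and 0 to 0 in muscle. The count of 3 in brown fat came without SBD replicate 1, 3 or 5 or HFD replicate 3, 4, 5 or 6. Pairs unlike the macrophage markers numbered 24 to 28. With each replicate number left out, 4 to 4 members differed between the 8 tissues, 4 to 6 between the 6 fat tissues, 0 to 0 between intra-abdominal and subcutaneous depots, 6 to 7 between depots on SBD and 5 to 6 between perirenal and other fat. The share over all genes was not computed with arrays left out. Cd63 ranged from −0.085 to 0.043 in gonadal, −0.094 to 0.015 in mesenteric, −0.145 to 0.017 in inguinal and −0.088 to 0.103 in subcutaneous fat and −0.058 to 0.068 in liver, where Lgals3 ranged from −0.062 to 0.089 and Ctsk from −0.031 to 0.048.

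The replicate number as a block left 0 calls in mesenteric fat (Trem2, adjusted p = 0.103) and added Cd9 in subcutaneous fat; the other 50 differences kept their call. The correlation of same-numbered arrays of the diets ran from −0.396 to 0.6, and 2 to 4 of 6 pairs in a tissue were over 0.1. Arrays with unlike numbers were not compared, so whether the numbers pair the diets cannot be told from these values.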
